A study of Arabidopsis thaliana with 6 samples.

Results

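The 9 genes described here are the 3 Aurora kinase genes of Arabidopsis thaliana (AUR1, AUR2 and AUR3), the paired genes 3xHMG-box1 and 3xHMG-box2, and the loci AT4G15830, AT3G02640, AT1G72250 and AT5G45700. They were taken by name from 13355 genes that have a probe set of their own, 1 probe set per gene. They were chosen with the difference between NPA and mock stems already known, so that difference is described for them and not tested. Each of the 9 had a single probe set, and none of these had a name ending in _s_at or _x_at, the endings of probe sets that can read several transcripts.

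The samples were inflorescence stem pieces of wild-type plants of the Columbia strain (Col). The 3 NPA samples had N-1-naphthylphthalamic acid, an inhibitor of polar auxin transport, at 10 mg/g, and the 3 mock samples had a mock treatment. All plants had 3 weeks of short days (8 h light, 16 h dark) followed by long days (16 h light, 8 h dark). Pieces of 3 mm, cut 2.5 cm above the stem base, were frozen after 7 days of treatment, and total RNA of each sample went onto 1 Affymetrix array. The study used NPA to start secondary growth, in which the cambium widens the stem, and its one comparison is NPA against mock. The labels name no separate plants behind the replicates, so the spread between them may be technical.

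Aurora kinases are enzymes that phosphorylate chromosome and spindle proteins while a cell divides. In Arabidopsis, AUR1 and AUR2 form the alpha type, found on the spindle and the growing cell plate, and AUR3 is the beta type, found at centromeres, where it phosphorylates histone H3. The 3xHMG-box proteins carry several DNA-bending HMG boxes and bind condensed chromosomes in mitosis. Genes of this kind are transcribed mainly from G2 to mitosis, and in a thickening stem the dividing cells lie in the cambium and the tissue next to it. The reference gene table lists the other loci without a name or function, so none is given here.

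On the second principal component, which held 21.9% of the variance, mock 1 and NPA 3 stood apart from the other 4 arrays. The first component held 42.6% and separated the groups. Over the whole table, 683 of 22746 probe sets were called at a Benjamini-Hochberg adjusted p under 0.05 by limma, or 3.00%, with 2.76% higher and 0.242% lower in NPA. Array medians averaged 6.36 in NPA and 6.25 in mock, so centring the arrays moves every difference down by 0.11 on the log2 scale. The calls were 628 higher and 55 lower as deposited, 391 higher and 97 lower after this centring, and 473 higher and 87 lower after renewed quantile normalization.

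In NPA stems 7 of the 9 genes had all 3 values above all 3 mock values, and AUR3 and 3xHMG-box1 did not. Of all probe sets, 14.8% were placed in this way, and since the genes were chosen on this comparison nothing is read from the difference between these shares. The log2 differences ran from -0.04 for AUR3 to 1.22 for 3xHMG-box2, with a median of 0.63 beside 0.02 over all probe sets. A difference of at least 2-fold was measured for 3 genes, 3xHMG-box2, AT4G15830 and AT3G02640. In whole stem pieces, more cells in division and more RNA of these genes per cell cannot be told apart.

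**Figure D1:**
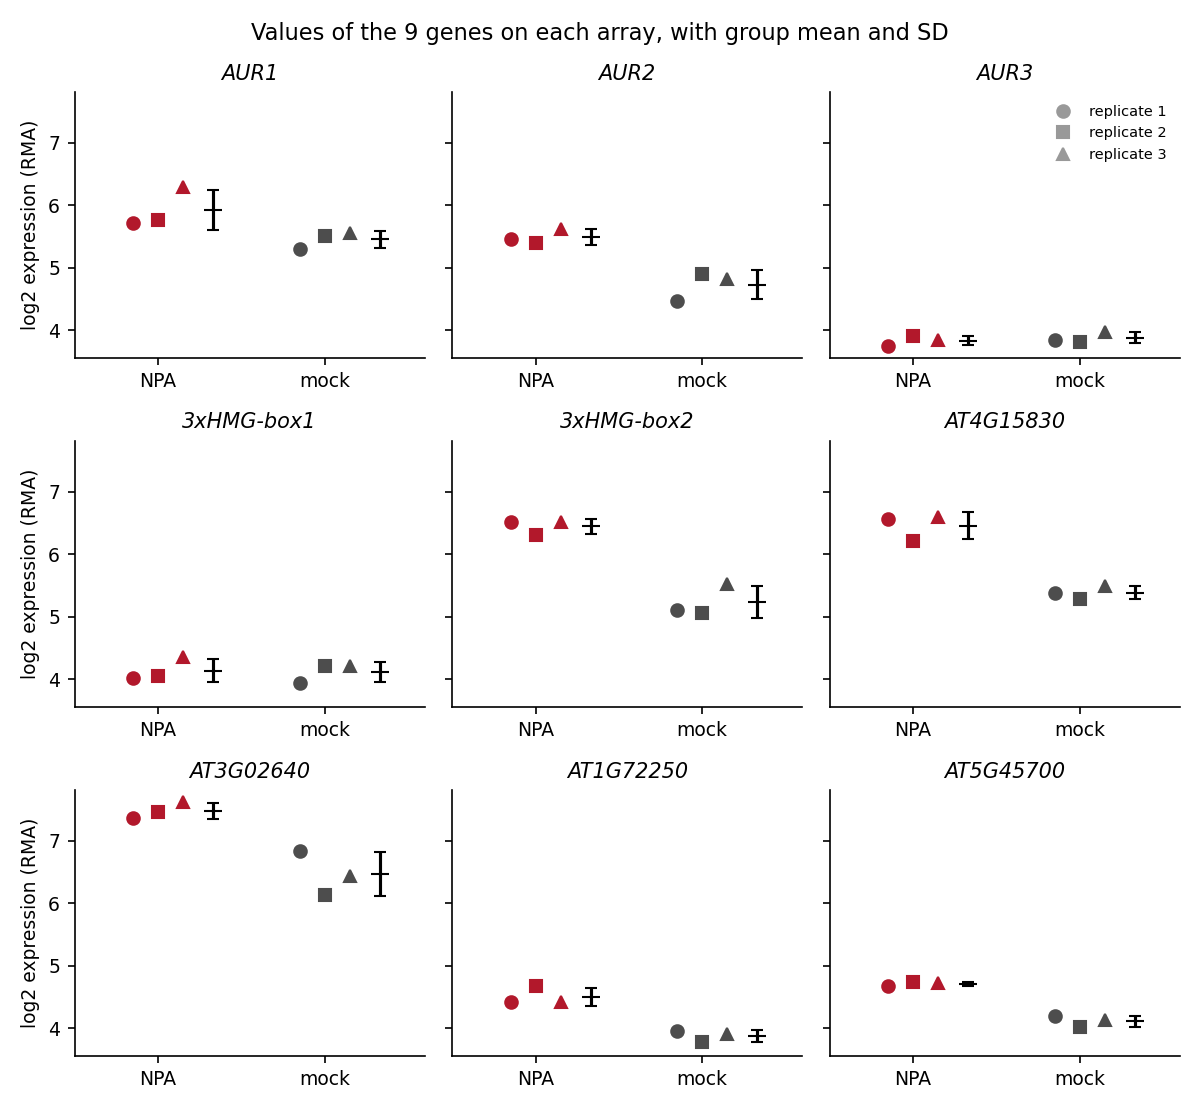
Log2 expression (RMA) of the 9 genes on each array, 1 panel per gene, with the 3 NPA arrays in red left of the 3 mock arrays in grey; marker shapes give replicate numbers and black bars the group mean ± SD. The groups are apart in 7 panels and mixed for AUR3 and 3xHMG-box1.

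AUR2 had log2 values of 5.45, 5.40 and 5.63 in NPA stems, against 4.46, 4.91 and 4.83 in mock stems. All NPA values were above all mock values, with a gap of 0.49 between the nearest arrays, and mock 1 was the lowest of the 6. The means were 5.49 ± 0.12 in NPA and 4.73 ± 0.24 in mock (SD, n = 3 each), a difference of 0.76 with a standard error of 0.14, or 1.69-fold.

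AUR1, the other alpha Aurora gene, had 5.71, 5.77 and 6.29 in NPA stems, against 5.30, 5.52 and 5.56 in mock stems. The groups did not overlap, but the nearest arrays were only 0.16 apart and NPA 3 lay well above the other NPA arrays. The difference was 0.46 ± 0.17 (SE), or 1.38-fold, and it was 0.28 without NPA 3. Without both arrays that stood apart it was 0.20.

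AUR3, the beta Aurora gene, had 3.76, 3.90 and 3.85 in NPA stems, against 3.85, 3.81 and 3.98 in mock stems. The values of the groups were mixed, and all 6 lay below the lower quartiles of the arrays, which ran from 4.16 to 4.31. The difference was -0.04 ± 0.09 (SE). RMA gives no detection call, so whether AUR3 was above background is not known. The difference of AUR2 exceeded that of AUR3 by 0.81 and that of AUR1 by 0.30 on the log2 scale.

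3xHMG-box2 had 6.52, 6.31 and 6.52 in NPA stems, against 5.12, 5.07 and 5.52 in mock stems. The lowest NPA array was 0.79 above the highest mock array. The means were 6.45 ± 0.12 in NPA and 5.23 ± 0.25 in mock (SD, n = 3 each), a difference of 1.22 ± 0.14 (SE), or 2.32-fold, the largest of the 9 genes. With 1 array left out at a time it stayed between 1.13 and 1.36.

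3xHMG-box1, its close relative, had 4.02, 4.05 and 4.35 in NPA stems, against 3.94, 4.21 and 4.21 in mock stems. The groups overlapped, with mock 1 the lowest and NPA 3 the highest of the 6 arrays. The difference was 0.02 ± 0.13 (SE), and it was -0.18 without mock 1 and NPA 3. The difference of 3xHMG-box2 exceeded that of 3xHMG-box1 by 1.19 on the log2 scale. The mean of 3xHMG-box1 was below the lowest of the array quartiles in both groups, so the limit given for AUR3 holds here too.

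Among the loci without a name, AT4G15830 had 6.57, 6.21 and 6.60 in NPA stems, against 5.38, 5.28 and 5.49 in mock stems. The groups were 0.72 apart at their nearest arrays. The difference was 1.08 ± 0.13 (SE), or 2.11-fold. AT3G02640 had 7.37, 7.46 and 7.62 in NPA stems, against 6.84, 6.13 and 6.44 in mock stems. It had the widest spread of the 9 genes (pooled SD 0.27), mainly among the mock arrays, and still did not overlap. Its difference was 1.01 ± 0.18 (SE), or 2.02-fold.

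AT1G72250 had 4.43, 4.67 and 4.42 in NPA stems, against 3.96, 3.78 and 3.91 in mock stems, a difference of 0.63 ± 0.11 (SE). AT5G45700 had 4.67, 4.74 and 4.72 in NPA stems, against 4.20, 4.02 and 4.13 in mock stems, a difference of 0.60 ± 0.09 (SE). AT5G45700 had the narrowest spread of the 9 genes (pooled SD 0.07). Both loci had mock means below the lower quartile of every array, and their folds of 1.54 and 1.51 have no known distance from background.

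Within a group, the arrays also differed in how many of the 9 genes stood above the group mean. On NPA 3, 8 of the 9 genes were above the mean of the NPA arrays, against 2 on NPA 1 and 3 on NPA 2. On mock 3, 8 of the 9 were above the mock mean, against 3 each on mock 1 and mock 2. Some of these deviations were near 0, as for AT5G45700 at 0.009 on NPA 3 and 0.013 on mock 3. The array median over all probe sets was also the highest of its group on NPA 3 (6.387) and on mock 3 (6.309). How many of all probe sets stood above the group mean was not counted, so nothing about the 9 genes is read from these counts. Set against the mock mean of each gene, the median of the 9 genes was 0.56 on NPA 1, 0.66 on NPA 2 and 0.83 on NPA 3, and between -0.10 and 0.09 on the mock arrays. The pooled SD within groups had a median of 0.17 over the 9 genes, close to the 0.15 over all probe sets.

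**Figure D2:**
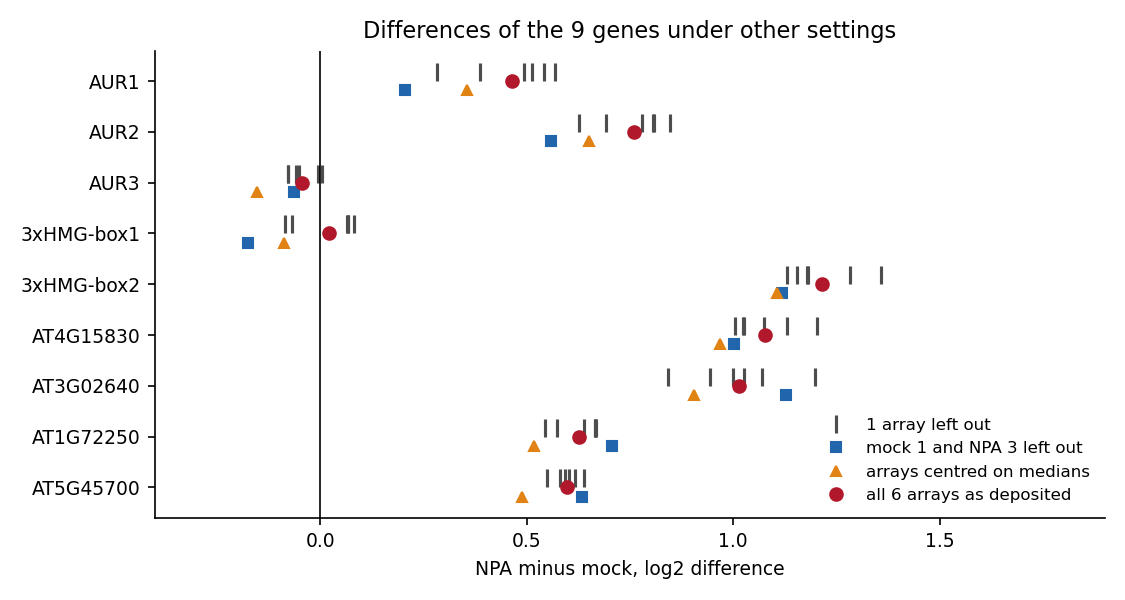
NPA minus mock log2 difference of the 9 genes with all 6 arrays as deposited (red circles), with 1 array left out at a time (grey ticks), without mock 1 and NPA 3 (blue squares) and with arrays centred on their medians (orange triangles). The 7 genes whose groups were apart lie above 0 in every setting drawn, down to 0.20 for AUR1. For groups that do not overlap this is fixed when arrays are left out, so only centring could have changed it. AUR3 and 3xHMG-box1 lie around or below 0.

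The median difference of the 9 genes was 0.63 without mock 1 and NPA 3, the same to 2 decimals as with all arrays. Leaving out these arrays lowered AUR1 and AUR2, to 0.20 and 0.56, and raised AT3G02640 and AT1G72250, to 1.13 and 0.71. After centring, AUR3 was at -0.15 and 3xHMG-box1 at -0.09.

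The genes most like AUR2 over the 6 arrays, by the root mean square distance between profiles with each gene's own mean taken off, were AT4G24790 (0.06), AT1G63640 (0.07) and AT5G53090 (0.08). Their differences were 0.68, 0.76 and 0.66. Those most like 3xHMG-box2 were ATMPK13 (0.08), a MAP kinase gene, AT3G56480 (0.10) and AT4G15830 (0.13), with differences of 1.16, 1.33 and 1.08. AT4G15830 was thus at place 3 among 13354 genes, while AUR2 was at place 128 and AT3G02640 at place 111 in likeness to 3xHMG-box2. 3xHMG-box1 was at place 5380 and AUR3 at place 7097. AUR1 was at place 220 in likeness to AUR2. With 6 arrays these distances mostly follow the size of the difference between the groups.

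Other genes of cell division were counted from 11 lists with 251 further genes. Lists filled by name can hold genes with other roles, such as HIS1-3, a drought-induced linker histone gene. Of the 251 genes, 37 had a probe set of their own named in the platform table, and such genes are called measured here. Of these 37, 1 rose in NPA by limma over all probe sets, none fell and 36 did not pass, that is 2.70% called beside 3.00% of all probe sets. At an unadjusted p under 0.05 there were 13 higher and 1 lower, together 37.8% beside 16.3% of all probe sets, which split into 11.4% higher and 4.95% lower. The mean was higher in NPA for 30 of the 37, or 81.1%, beside 53.9% of all probe sets, and the median difference was 0.24 beside 0.02. After median centring it was higher for 23 of the 37, or 62.2%, beside 31.7% of all probe sets, with a median difference of 0.13 beside -0.09. The NPA values were all above the mock values in 16 of the 37 and all below them in 1, beside 14.8% and 7.45% of all probe sets. No mitotic cyclin or cyclin-dependent kinase of the 28 listed was among the 37, so these were not analysed here. As 8730 probe sets had no gene name, genes not measured here may still have a probe set on the array. The 37 are therefore not a full sample of cell division genes. Their lists were also chosen with earlier results of these data known, so nothing is read from these shares.

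The gene that rose was TOPII, which encodes topoisomerase II, an enzyme that untangles DNA strands before chromosomes part. It had 5.44, 5.25 and 5.58 in NPA stems, against 4.81, 4.31 and 4.55 in mock stems. The groups did not overlap, and the difference was 0.87 ± 0.15 (SE, limma adjusted p = 0.0271), or 1.82-fold. Leaving out mock 1 kept this call, while leaving out any other single array ended it (limma adjusted p at most 0.0949), as did median centring (limma adjusted p = 0.0540). Its difference stayed between 0.74 and 0.99. The other 7 measured genes of the cohesin, condensin and kinetochore list did not pass. They lay between -0.06 and 0.22. Among them were HTR12, the centromeric histone H3, at 0.001 (limma adjusted p = 0.999) and ATSMC2, a chromosome-structure ATPase gene, at -0.01. HTR12 averaged 4.34 in both groups, near the lower quartiles of the arrays. AT3G08880, also of this list, had a mock mean of 3.61. Whether such dim genes were above background is not known.

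All 5 measured genes of the spindle checkpoint and the anaphase-promoting complex had higher means in NPA, between 0.29 and 0.46, and 0 of 5 passed limma's test, with 3 at an unadjusted p under 0.05. CDC27a, a subunit of that complex, differed by 0.46 ± 0.12 (SE, limma adjusted p = 0.106). BUB3.1 and BUB3.2, of the checkpoint, differed by 0.31 (adjusted p = 0.168) and 0.29 (adjusted p = 0.212) in the limma fit.

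Of the genes listed beside the Auroras, as partners or TPX2-like proteins, 4 were measured and 0 passed, with 2 at an unadjusted p under 0.05. AT4G39630 differed by 0.43 ± 0.11 (SE, limma adjusted p = 0.106). WYR, whose protein resembles the INCENP scaffold that holds Aurora kinases on chromosomes, differed by 0.30 (limma adjusted p = 0.187). Haspin, a kinase of histone H3, differed by 0.24 (limma adjusted p = 0.382), and by 0.13 without NPA 3 or after median centring. AT4G22860 had a lower mean in NPA, at -0.05 (limma adjusted p = 0.853). The mock means of these 4 genes, at 3.98, 3.58, 4.02 and 3.99, were below the lower quartiles of the arrays.

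All 8 measured genes of the kinesin list had higher means in NPA as deposited, between 0.06 and 0.38, but KINESIN-12B and AT2G37420 turned to -0.05 and -0.01 after median centring. KINESIN-12B was also at -0.02 without NPA 3, and AT2G37420 at -0.02 after renewed quantile normalization, at -0.05 without mock 1 and at -0.10 without both of these arrays. By limma 0 of 8 passed, with 4 at an unadjusted p under 0.05. The list was filled from chosen loci and from names, so it can lack kinesin genes that carry no such name. The mock means of AT3G44050, AT2G28620, AT4G14330, KINESIN-12B and AT3G20150 were below the lower quartile of every array. The limit given for AUR3 holds for these kinesins too, so their small differences have no known distance from background. KINESIN-13A, a microtubule motor-family gene, differed by 0.38 ± 0.09 (SE, limma adjusted p = 0.0831). TSO1, which encodes a partner of the MYB3R factors that switch mitotic genes on or off, differed by 0.51 ± 0.12 (limma adjusted p = 0.0731). Its 3 NPA values of 6.53, 6.72 and 6.32 were above the mock values of 5.98, 6.03 and 6.05. Without NPA 3 TSO1 passed (adjusted p = 0.0482).

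In the phragmoplast list KEU, which acts in the fusion of vesicles at the cell plate, differed by 0.30 (limma adjusted p = 0.301), and by 0.17 without mock 1. FU, the other gene measured there, differed by 0.55 (limma adjusted p = 0.367). By limma 0 of these 2 genes passed, with 1 at an unadjusted p under 0.05. Of the DNA replication genes PRL, the MCM7 helicase subunit, differed by 0.62 ± 0.17 (SE, limma adjusted p = 0.123), and 0 of 2 passed, with 1 at an unadjusted p under 0.05. The 4 measured histone genes lay between -0.11 and 0.31, led by HTB2, a histone H2B gene (limma adjusted p = 0.422), which was at 0.18 without NPA 3, and none had an unadjusted p under 0.05.

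A few genes were lower in NPA, and none of them passed. AT5G23405, from the list of other HMG-box proteins, differed by -0.36 ± 0.14 (SE, limma adjusted p = 0.253). SIM, which encodes SIAMESE, an inhibitor of the cell cycle that favours endoreduplication, differed by -0.19 (limma adjusted p = 0.476).

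**Figure D3:**
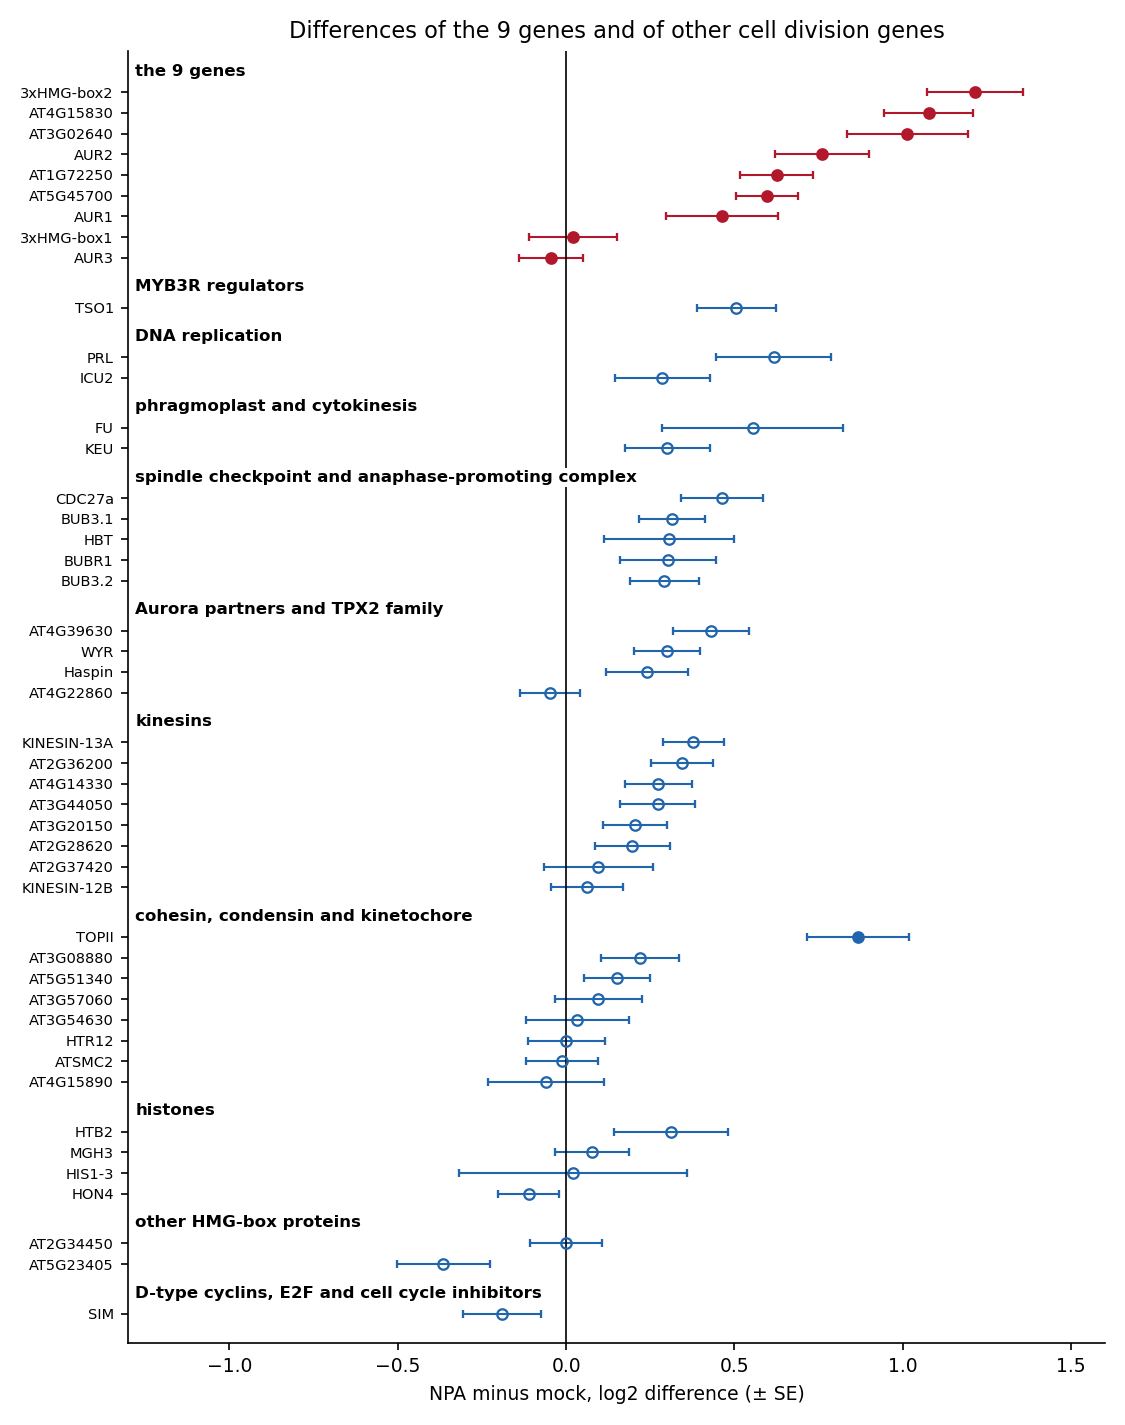
NPA minus mock log2 difference ± SE (limma) of the 9 genes (red) and of the 37 other measured genes of cell division by list (blue; filled where the limma adjusted p is under 0.05, open where it is not). TOPII at 0.87 is the only filled blue point, and most open points lie between 0 and 0.6.

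**Figure D4:**
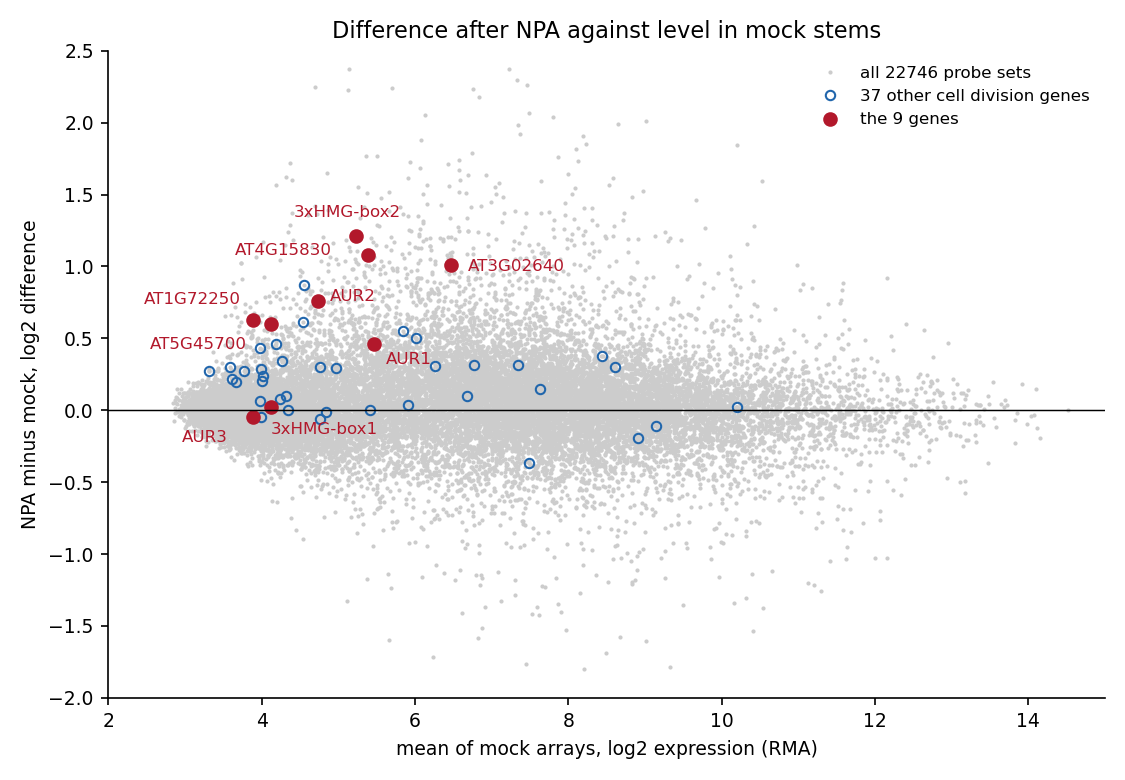
NPA minus mock log2 difference against the mean log2 level of the mock arrays for 22746 probe sets (grey), the 37 other cell division genes (blue) and the 9 genes (red); 7 probe sets lie outside the range drawn. The mock means of the 9 genes run from 3.88 to 6.47, in the lower and middle part of the array's range.

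As a check of the tissue by level, 4 of 22 listed markers of stem vascular tissue and secondary walls were measured. All 4 were called higher in NPA by limma, by 0.75 to 1.40, as were 2.76% of all probe sets. The marker lists were chosen with earlier results of these data known, so nothing is read from that count. The summed linear level of the 4 markers was 6828 to 7606 in NPA arrays and 3589 to 4095 in mock arrays. HCT, a lignin synthesis gene, was the brightest, at 12.30 ± 0.04 in NPA and 11.55 ± 0.09 in mock (SD, n = 3 each, limma adjusted p = 0.00749). These markers moved with the 7 higher genes, and their part in that was not tested.

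Few markers of other tissues were measured, and since signal over background is unknown, their levels do not show whether such tissue was present. CLV3, of the shoot meristem, was the only measured gene of its list of 10, at 3.75 in NPA and 3.62 in mock (limma adjusted p = 0.628). EXPA7, of root hairs, was the only measured gene of its list of 8, at 3.93 in NPA and 3.84 in mock (limma adjusted p = 0.696). The summed linear level of the 3 measured stomatal genes was 49.0 to 53.8 in NPA and 49.9 to 56.5 in mock. The brightest of them, FMA (FAMA), was at 4.68 in NPA and 4.91 in mock (limma adjusted p = 0.303). None of these 5 genes passed limma's test, and FMA alone had an unadjusted p under 0.05.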

How the data were processed

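The deposited values are log2 expression made by the authors with RMA, which corrects background, quantile-normalizes arrays and summarises probes. RMA and limma are named without versions, per the submitters' processing notes. Any other step is not given in the sources used here, and the groups came from sample titles.

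The values were used as deposited, without 64 control probe sets. NPA minus mock was fitted on 22746 probe sets with limma 3.58.1 (lmFit, eBayes) under R 4.3.3, and p-values were adjusted over all of them (Benjamini-Hochberg) and called at 0.05. Summaries used Python 3.11.15 and pandas 2.3.3. The number of arrays limits the precision. On simulated data for this comparison, with 22746 probe sets, 93% of 100 changed 2-fold and 100% of 100 changed 4-fold were called, and 14 of 207 calls were false.

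Of the probe sets 13513 had 1 gene in the platform table, 503 had several and 8730 were unnamed here. The brightest probe set stood for a gene, with symbols from a TAIR10.1 table, matched by gene number for 13436 probe sets. That table has no descriptions, so its synonyms served where lists were filled by name.

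The 9 genes and the lists were chosen with earlier results of these data known. The named genes were the 9, every called gene (up to 6) or else the lowest p of each list, the 3 nearest profiles to AUR2 and 3xHMG-box2, and the brightest marker of each list. Other names were chosen after their values were seen. No sequences are printed, as none were used here.

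Same-numbered NPA and mock arrays had correlations of -0.26, 0.05 and 0.04 between deviations from their group means, so the numbers were not taken as pairs. Alternatives were a replicate block, renewed quantile normalization, median centring, probe sets brighter than the median, eBayes with trend and robust settings, single arrays left out, a threshold of 0.01 and averaged probe sets per gene. Leaving out mock 1 and NPA 3 together was added after the data were seen.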

Additional observations from a re-analysis of the deposited data

How the results depend on the processing

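With all arrays as deposited 683 probe sets were called. Separate fits called 488 to 748 after centring, renewed quantile normalization or trended and robust eBayes or among probe sets brighter than the median, while 225 passed at 0.01, 397 without mock 1 and NPA 3, and 304 to 446 with single arrays left out. With the replicate block 449 were called, though the replicate numbers were not taken as pairs. Whether they pair samples is not given in the labels. The cell division genes called numbered 1, as they did with the block, and 0 after centring and among the brighter probe sets, where only 11 of the 37 were tested; with single arrays left out there were 0 to 1. Such fits have fewer arrays, from which alone a call can be lost.

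The median difference of the 9 genes was 0.52 to 0.67 over all 12 settings that gave it. Of 109 values of single genes under these settings, 104 moved by less than 1 SD between replicates. The other 5 were AUR3 (-0.15) and AT5G45700 (0.49) after centring, and AUR1 (0.20), AUR2 (0.56) and 3xHMG-box1 (-0.18) without mock 1 and NPA 3. The replicate block, trended and robust eBayes, averaged probe sets and the restriction to brighter probe sets cannot change these differences. Values from those settings, and any median from them, were unmoved by construction and show nothing about stability. With 3 arrays per group, leaving out 1 array also cannot move a gene's difference by 1 pooled SD. The values of single genes with 1 array left out were thus bound to count among the 104. Only AT3G02640 of the 9 was among the brighter probe sets, so this setting gives no median. Signal over background is unknown, which limits the dim genes most.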

Other observations

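The protein-coding genes next to each of the 9 genes, 1 on either side in the TAIR10.1 table, were looked up after the values were seen. Of 18 such neighbours 11 had a probe set of their own named in the platform table, beside 8 of the 9 genes. None was called by limma, and none had an unadjusted p under 0.05. Their differences ran from -0.20 for AT4G15820 (limma adjusted p = 0.555) to 0.37 for THI2.1, a thionin gene next to AT1G72250 (limma adjusted p = 0.570), with a median of -0.01. Beside 3xHMG-box2, WRKY53, a transcription factor gene linked to leaf senescence, differed by 0.26 ± 0.43 (SE, limma adjusted p = 0.830). Beside AUR2, AT2G25870 and AT2G25890 differed by -0.06 and -0.18.

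Among the listed genes outside the 9, FU (FUSED) had a wide spread in NPA, with 5.81, 6.57 and 6.81 in NPA stems against 6.15, 5.56 and 5.82 in mock stems, and a difference of 0.55 ± 0.27 (SE, limma adjusted p = 0.367). It was 0.34 without NPA 3, 0.85 without NPA 1 and 0.22 as the mean of all probe sets of FU. HIS1-3, a drought-induced linker histone gene, had 10.36, 10.69 and 9.62 in NPA stems against 9.57, 10.55 and 10.48 in mock stems. NPA 3 and mock 1, the arrays that stood apart from the others, were the lowest of their groups for HIS1-3.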
